A study of Mus musculus and Homo sapiens with 10 samples.

Results

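The regions described are the places in the genome of mouse MMTV-Myc cells where trimethylation of histone H3 lysine 4 (H3K4me3) was called changed after knockdown of Cbx8. They are all 719 regions of the authors' lists for this comparison, 701 called lower and 18 called higher, out of 966 regions in the mouse lists and 4818 in the whole series. The mouse cells carried a lentiviral short hairpin RNA against Cbx8 (genotype label Cbx8 knockdown) or a scrambled hairpin, shScr (genotype label wild type). Both were kept under puromycin, so the control cells also went through infection and selection. The name MMTV-Myc is used for mammary tumours driven by a Myc transgene under the promoter of mouse mammary tumour virus. Chromatin was cut to mononucleosomes with micrococcal nuclease and precipitated with the same H3K4me3 antibody in both groups, with 1 library per group, and an input library exists for the scrambled hairpin. With 1 library per group, no difference here has a replicate check and no test between the groups was possible.

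Polycomb repressive complex 1 (PRC1) exists in several forms, and Cbx8 is 1 of the chromodomain subunits that can bring it to H3K27me3, the mark laid down by PRC2. H3K4me3 sits on the nucleosomes around the start sites of active genes and is written by methyltransferase complexes that share the subunit Wdr5, which the study's title pairs with Cbx8. H3K27ac marks active promoters and enhancers. The comparison asks where the promoter mark depends on Cbx8 in mammary tumour cells.

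The regions were chosen by the authors' fold and q-value for the contrast between the hairpins. Per the list names, the fold required was 1.8 and the q-value 1e-08. The direction of each region is therefore given as a description. The lists hold positions only, so the fold and q-value of each region and the read depth behind it are unknown here, and values just inside or outside the threshold cannot be given. Lower regions were 97.5% of the changed regions and covered 1.42 Mb, against 40.15 kb for the higher ones. The other mouse marks leaned the same way. H3K27ac had 166 lower and 16 higher regions, and H3K27me3 had 63 lower and 2 higher. The excess of lower calls is therefore not particular to H3K4me3. How many regions were tested for each mark is unknown here.

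The lists give no gene names, and no gene map of mm9, the build named for mouse in the submitters' processing notes, was used. Names are therefore given for 7 lower regions only. They were recalled by the language model that wrote this text, as mm9 positions, after it had seen the regions, and were not looked up in an annotation. They are unverified and depart from the naming rule set for the work, which asked for an annotation of the same build. A RefSeq table of another build (GRCm38.p6) gives the same chromosome for all 7 genes and the same order for the 3 pairs of next-door named genes, a check that a gene lying far from its region could also pass. The other 694 lower regions and all 18 higher regions are given by position. How far Cbx8 was reduced, and whether the cells carry mammary epithelial markers, was not analysed here.

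Promoter sequences are shown for Notch1 and for a start inside Cdkn1a, as examples of named genes with a region among the first 20 listed. Phlpp1 also has such a region and is not shown, and neither is the outer start of Cdkn1a. The sequences shown are RefSeq windows of the build GRCm38.p6, from 250 bases before to 50 bases after the annotated start. They were matched by symbol and are printed 5′ to 3′ on the strand of the gene. Whether a window lies inside the mm9 region was not checked. Capitals mark CG dinucleotides.

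Notch1: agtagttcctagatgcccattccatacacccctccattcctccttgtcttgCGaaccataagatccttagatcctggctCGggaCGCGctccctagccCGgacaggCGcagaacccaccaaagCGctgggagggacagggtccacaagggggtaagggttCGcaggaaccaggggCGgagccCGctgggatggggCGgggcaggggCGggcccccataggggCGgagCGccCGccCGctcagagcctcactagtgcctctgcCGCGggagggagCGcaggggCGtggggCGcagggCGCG
Cdkn1a: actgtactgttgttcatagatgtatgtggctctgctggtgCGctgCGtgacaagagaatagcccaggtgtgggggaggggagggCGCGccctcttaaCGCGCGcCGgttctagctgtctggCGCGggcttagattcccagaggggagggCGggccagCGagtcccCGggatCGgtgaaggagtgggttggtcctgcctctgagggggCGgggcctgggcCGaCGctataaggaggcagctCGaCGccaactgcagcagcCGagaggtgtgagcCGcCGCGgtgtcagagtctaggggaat

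Each of these windows has 23 CG dinucleotides. Over all 32851 RefSeq windows of this length the median was 7. RefSeq windows were found for 5 of the 7 named genes, 6 windows in all. At the outer start of the gene in the RefSeq table lie 4 of them, those of Phlpp1 with 42 CG dinucleotides, Serpine2 with 41, Notch1 with 23 and a second one of Cdkn1a with 2. The other 2 windows belong to starts inside the gene: that of E2f1, 466 bp inside, has 48, and the Cdkn1a window shown lies 2790 bp inside. The windows thus ran from 2 to 48, and the starts of Cdkn1a lay on either side of the median. The share of G and C was 77.7% at Serpine2, 70.7% at Phlpp1 and 68.3% at Notch1, beside a median of 52.7% over all windows. At Cdkn1a it was 54.7% at the outer and 64.7% at the inner start, and at the inner start of E2f1 77.3%. These genes were hand-picked, so the values describe them and not the list.

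**Figure D1:**
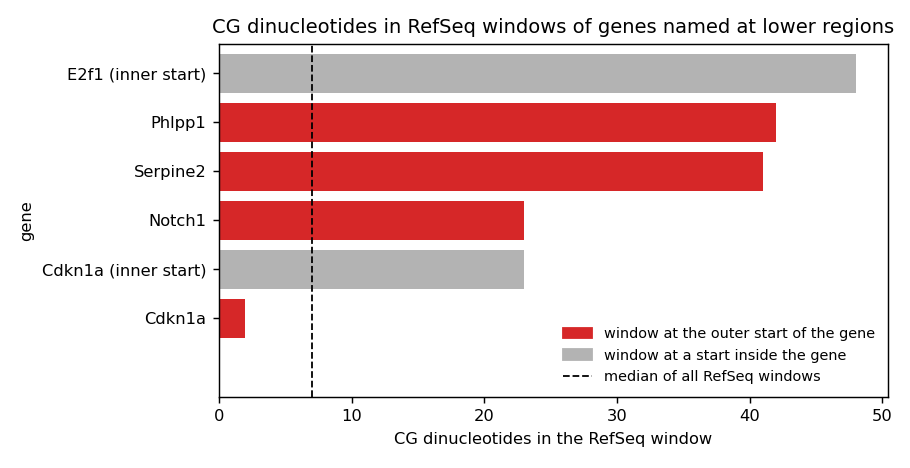
Number of CG dinucleotides in each 300-base RefSeq window (bars) of the genes named at lower regions, in red for windows at the outer start of the gene and in grey for starts inside it, with the median over all RefSeq windows as a dashed line. The red bars of Phlpp1, Serpine2 and Notch1, at 23 to 42, and the grey bars of E2f1 and Cdkn1a, at 48 and 23, exceed the median of 7, and the red bar of Cdkn1a, at 2, does not.

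Named genes of the cell cycle were an inhibitor and an activator. Cdkn1a, which encodes p21, an inhibitor of cyclin-dependent kinases, was named at a lower region of 3.7 kb. That region stood at position 13 of the list (mm9, chromosome 17, 29230251 to 29233950). E2f1, an activator of S-phase genes, was named at a lower region of 3.55 kb at position 35 (chromosome 2, 154393601 to 154397150). Both regions were longer than the median lower region of 1850 bp. The first 100 listed regions, which include both, had a median of 3125 bp, so such length is not particular to them.

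Notch is a receptor that is cut on contact with its ligands, after which its inner part joins Rbpj at target genes. Notch1 was named at a lower region of 3.05 kb at position 16 (chromosome 2, 26356801 to 26359850). The nearest other lower region was 91.8 kb away.

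Phlpp1 and Egr1, like Notch1, are named genes linked to signalling, which says nothing about the regions without a name. Phlpp1, a phosphatase that removes activating phosphate from Akt, was named at a region of 5.2 kb at position 12 (chromosome 1, 108067201 to 108072400), the 7th longest. Egr1, a zinc finger factor switched on rapidly by growth factor signals, was named at one of 4.85 kb at position 55 (chromosome 18, 35018301 to 35023150), the 10th longest. The nearest other lower region was 12482 kb from that of Phlpp1 and 975 kb from that of Egr1. Over all lower regions this distance had a median of 420 kb and an upper quartile of 1.5 Mb, so that of Egr1 was not unusual.

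Per2 and Serpine2 lay further down the list. Per2, a repressor of the circadian clock, was named at a lower region of 1.9 kb at position 245 (chromosome 1, 93354801 to 93356700). Serpine2, a secreted inhibitor of serine proteases, was named at one of 2.45 kb at position 270 (chromosome 1, 79853551 to 79856000). Another lower region lay 34.15 kb from that of Per2, and the nearest to that of Serpine2 was 2431 kb away.

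The lower list was not sorted by position, and length fell along it. The first 100 regions had a median of 3125 bp (range 1400 to 7850 bp), the next 100 a median of 2400 bp, and the last 101 a median of 1150 bp (300 to 2900 bp). Of the first 100, 60 were at least 3000 bp long, and of the last 100, 0 were. Across the 701 regions, length and list position had a Spearman correlation of -0.75. This is a description across regions of 1 pair of libraries, and the sources used do not say what orders the list. For the 18 higher regions the same correlation was 0.06. Of the 22 longest lower regions (3 share the rank of 20), 11 were also among the first 20 listed, which is 50.0% of the longest and 55.0% of the first.

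**Figure D2:**
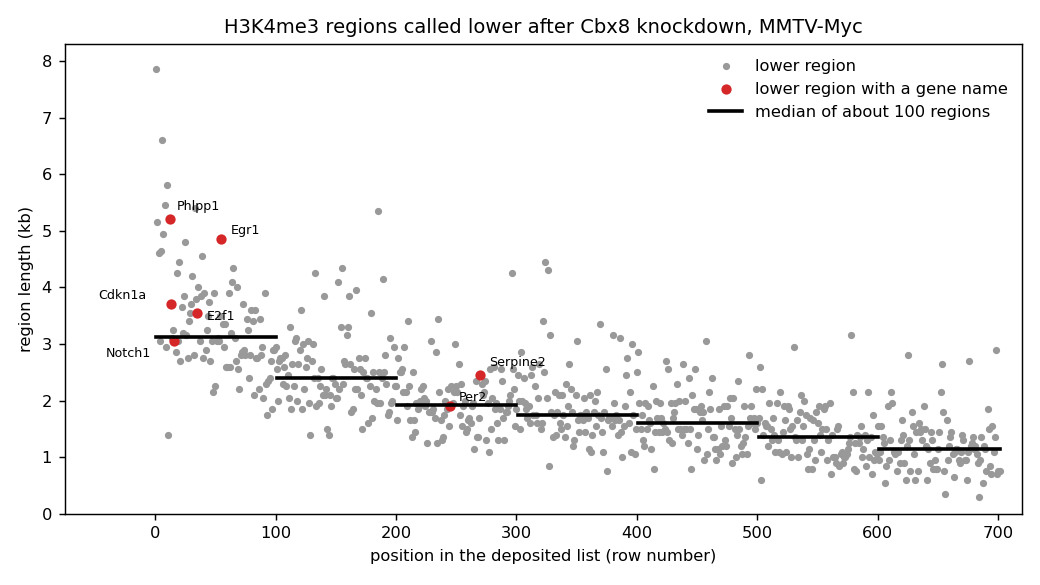
Length in kb of each lower H3K4me3 region (points) against its row in the deposited list, with the 7 regions that carry a gene name in red and black lines at the median of each run of about 100 regions. The medians fall from 3125 bp in the first 100 to 1150 bp in the last 101. Per2 and Serpine2 lie further down the list than the other named genes, a difference that the choice of regions to name can produce.

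Of the 31 lower regions that were among the first 20 listed or among the longest by rank 20, 4 carried a name. The first listed was also the longest, 7.85 kb on chromosome 5 (116009101 to 116016950), with another lower region 14.6 kb away. The next in length, 6.6 kb at position 6, lay on chromosome 11 (117683551 to 117690150), 29.05 kb from a neighbour. The third, 5.8 kb at position 10 (chromosome 11, 98565551 to 98571350), had a neighbour at 2200 bp. The fourth, 5.45 kb at position 8, lay on chromosome 10 (79781801 to 79787250).

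Other long regions stood among the first 20. A 5.15 kb region at position 2 lay near the start of chromosome 11 (3188251 to 3193400). Chromosome 7 held a region of 4.95 kb (56500451 to 56505400) and another of 4.6 kb (146097651 to 146102250). Those of chromosome 2 (156664651 to 156669300) and chromosome 8 (123059451 to 123063900) measured 4.65 and 4.45 kb. The shortest of the first 20 was 1.4 kb at position 11 (chromosome 7, 103670751 to 103672150). Long regions also stood far down the list. One of 5.35 kb, the 6th longest, was at position 185 (chromosome 14, 70473651 to 70479000). One of 4.3 kb was at position 326 (chromosome 10, 79620851 to 79625150).

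Lower regions had an interquartile range of 1400 to 2500 bp. At least 3000 bp was reached by 96 regions, 57 were under 1000 bp, and 2 were under 500 bp. The higher regions ran from 1300 to 3750 bp with an interquartile range of 1800 to 2700 bp. Of these, 4 reached 3000 bp and 0 were under 1000 bp.

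The higher regions were few, and some stood close to each other. On chromosome 19, 3 lay in a row: 2.15 kb, first in the list (34657551 to 34659700), 2.75 kb (34681601 to 34684350) and 3.75 kb (34714351 to 34718100). The gaps between them were 21.9 kb and 30.0 kb, and the last was the longest of the list. On chromosome 7, regions of 1.75 kb (111593151 to 111594900) and 1.8 kb (111612501 to 111614300) were 17.6 kb apart, the closest pair. On chromosome 18, 2 regions of 1.8 kb (60371301 to 60373100 and 60541701 to 60543500) were 169 kb apart.

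The other higher regions were spread over 7 chromosomes. Chromosome 5 had 3, of 1.95 kb (105538001 to 105539950), 3.4 kb (115346701 to 115350100) and 2.0 kb (121198051 to 121200050), 9807 kb and 5848 kb apart. Chromosome 15 had regions of 3.1 kb (74825751 to 74828850) and 1.8 kb (99422701 to 99424500). Chromosome 3 had regions of 2.55 kb (50999101 to 51001650) and 3.05 kb (151410051 to 151413100). Chromosomes 6, 10, 11 and 14 had 1 each, at 127396401 to 127397700, 30374401 to 30375950, 20610801 to 20612650 and 59982901 to 59984700, between 1.3 and 1.85 kb long.

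**Figure D3:**
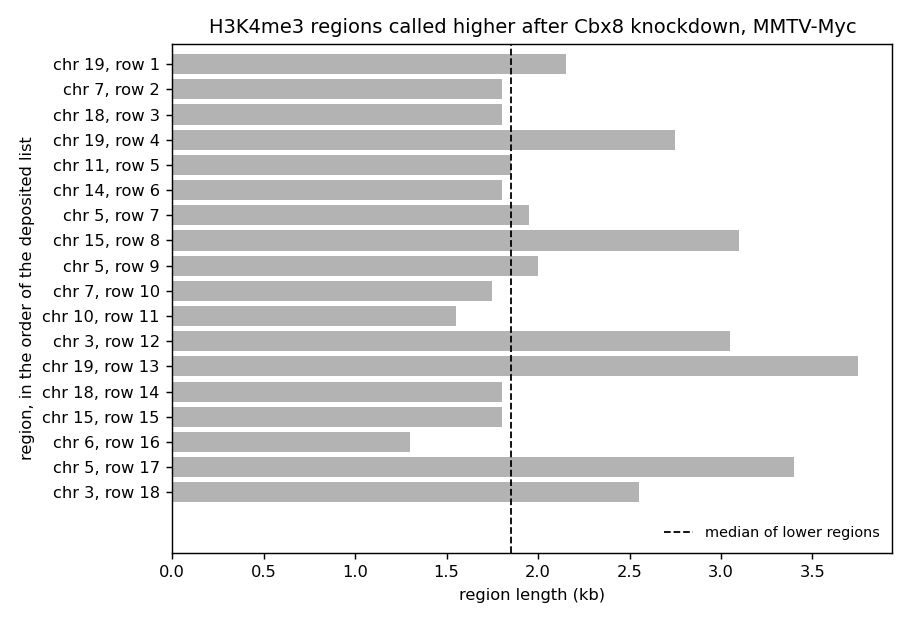
Length in kb of the 18 higher H3K4me3 regions (bars) in the order of the deposited list, each with its chromosome and row, and the median lower region as a dashed line. The longest, 3.75 kb, is on chromosome 19 at row 13, and 4 bars reach 3000 bp.

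Distances between lower regions varied widely, and 36.2% of them had another lower region within 200 kb. The median distance to the nearest lower region was 420 kb (interquartile range 105 kb to 1.5 Mb), and 14 of the 701, or 2.00%, had another within 5 kb. The 7 such pairs were on chromosomes 1, 3, 4, 7, 10, 11 and 17. The closest was on chromosome 17, with 700 bp between 26337501 to 26338850 and 26339551 to 26340900. The pair on chromosome 1 (172993851 to 172997400 and 173000551 to 173005100) held regions of 3550 and 4550 bp, at positions 29 and 39 of the list, across a gap of 3150 bp. On chromosome 7, regions of 2750 and 2500 bp (148400701 to 148403450 and 148406001 to 148408500) were separated by 2550 bp. In the pairs on chromosomes 10 and 11, a region among the first 20 listed sat beside one at position 533 and 310.

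Windows of 1 Mb with any lower region numbered 477, and 349 of them held 1. Another 13 windows held 5 or more, with 72 regions or 10.3% of the list. In the fullest, on chromosome 10 from 79 to 80 Mb, the 9 regions covered 26.95 kb within a stretch of 627 kb and were 1650 to 5450 bp long. On chromosome 7 from 148 to 149 Mb the 7 regions covered 14.05 kb within 384 kb, and on chromosome 11 from 69 to 70 Mb the 6 regions covered 11.5 kb within 402 kb. The tightest of the 13 was on chromosome 13 from 55 to 56 Mb, where 5 regions lay within 208 kb. The 13 windows held 0 higher regions, and of all 477 windows with a lower region, 4 held any. The 0 is therefore not read as a trait of the fuller windows. Gene density was not analysed here, so fuller windows cannot be set against it.

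**Figure D4:**
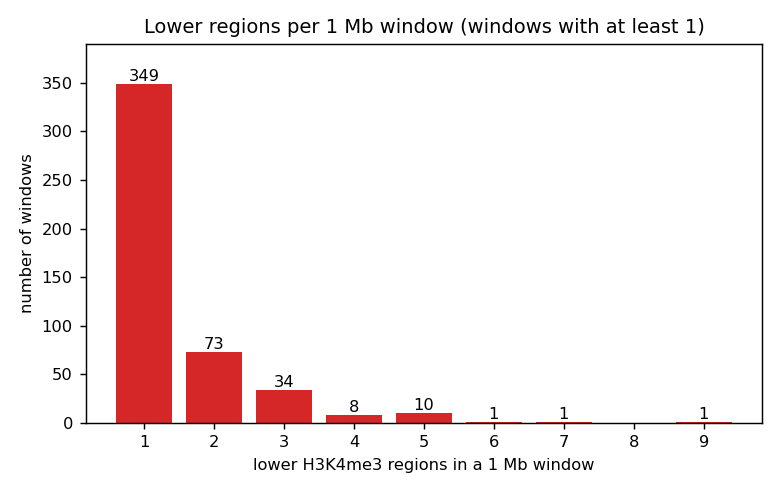
Number of 1 Mb windows (bar height, printed above) by the number of lower H3K4me3 regions they hold. Most windows, 349 of 477, hold 1 region, and 1 window each holds 6, 7 and 9.

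The nearest lower region was at a median of 1.23 Mb from a higher one, and 6 of the 18 higher regions had one within 1 Mb. The closest pair was the higher region on chromosome 15 at 99422701 to 99424500, which lay 76.15 kb from a lower region. The 3 higher regions in a row on chromosome 19 were 1910 to 1969 kb from the nearest lower region. Among the higher regions, 7 of 18 had another higher region within 200 kb, or 38.9%, beside 36.2% of the far more numerous lower regions within their own list.

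Some of these places were also called changed for H3K27ac, and whether their number differs from chance was not tested. Of the 701 lower H3K4me3 regions, 4 overlapped a lower H3K27ac region, or 0.571% of this list and 2.41% of the 166 H3K27ac regions. They were the regions given the unverified names E2f1, Cdkn1a, Per2 and Serpine2. The naming rule covered regions overlapping another mark, and names were recalled with the regions in view. That all 4 carry a name is therefore not read as a result. At E2f1 the H3K27ac region was the wider, so that the 3550 bp of the H3K4me3 region lay within it and made up 56.3% of its length. At Cdkn1a both regions were 3700 bp long and shared 3150 bp, or 85.1% of each. At Per2 all 1900 bp of the H3K4me3 region were shared, 74.5% of the H3K27ac region. At Serpine2 the overlap of 1050 bp was 42.9% of the H3K4me3 and 29.6% of the H3K27ac region. H3K27ac regions called lower also lay close by, without overlap, on chromosome 2 (28368351 to 28370400, 1650 bp away), chromosome 6 (29423501 to 29424650, 4150 bp) and chromosome 7 (19892001 to 19896250, 4250 bp).

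Among the higher regions, 1 overlapped a higher H3K27ac region, the middle one of the row on chromosome 19. There 2500 bp were shared, 90.9% of the H3K4me3 and 76.9% of the H3K27ac region. That H3K27ac region lay 21.15 kb from the higher H3K4me3 region before it and 30.25 kb from the one after it. Of the H3K4me3 regions, lower or higher, 0 overlapped any of the 63 lower or 2 higher H3K27me3 regions. With H3K27me3 lists this short, the 0 is not read as a separation of the marks, and overlap by chance was not tested. The nearest was a lower H3K4me3 region on chromosome 7 (144085901 to 144087250), 5.95 kb from a lower H3K27me3 region, and 3 lower regions had one within 100 kb.

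**Figure D5:**
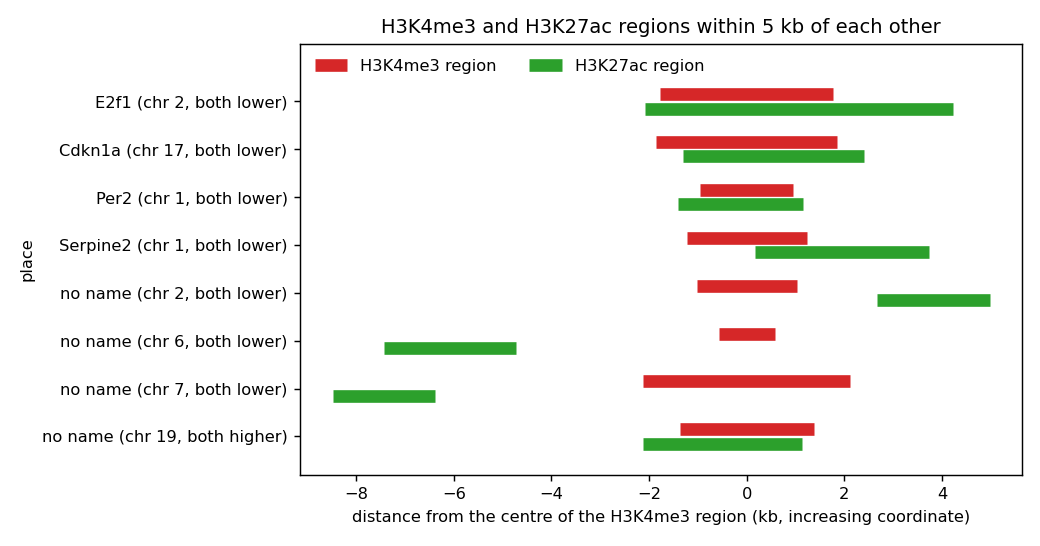
Extent of H3K4me3 regions (red) and H3K27ac regions (green) at the 8 places where they lie within 5 kb, as distance in kb from the centre of the H3K4me3 region. The bars overlap at the places named E2f1, Cdkn1a, Per2 and Serpine2 (unverified names) and at the place on chromosome 19. H3K27ac lies to a side at the other 3 places.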

How the data were processed

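Per the labels' protocols, nucleosomes were sequenced as single-end reads of 100 bp. The deposited lists, made by the authors, hold 3 columns (chromosome, start, end) and no score. The submitters' processing notes name mm9 for mouse, SICER, MACS2 2.1.0, Bowtie 1.0.0 and FastQC 0.10.0. Which tool called the changes, and whether libraries were scaled for depth, is not stated in what was read. All positions fit a grid of 50 bp when read as starts from 0 with the end included, and are printed from 1.

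Lengths, distances, overlaps of at least 1 bp and counts in 1 Mb windows were computed with pandas 2.3.3, scipy 1.17.1 and numpy 2.4.6 under Python 3.11.15, with figures from matplotlib 3.10.9. The code that finds overlaps was checked on planted ones; the number of overlaps was not tested against chance. The naming rule covered the longest regions by rank 20, the first 20 listed, all higher regions, those overlapping another mark and windows with 5 or more lower regions, with genes from an mm9 annotation or a match of names needing no other build. No such annotation was used, so the 7 gene names depart from it: they are mm9 positions recalled by the model, unverified. Other candidate names had been reached by shifting remembered positions of another build and were dropped with the results resting on them. A further named region is not reported here. Planned counts over gene lists and of regions with a gene start were not made. Members, lists and names were chosen with earlier results of these data known. Alternatives were a minimum length, merging of close regions, base pairs in place of counts, autosomes only, and other distances.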

Additional observations from a re-analysis of the deposited data

How the results depend on the processing

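Of 10 alternative values over 4 results, 7 stayed within the interval or the 1.5-fold range used to judge them. For the share of lower regions the interval was an exact binomial one, 96.1% to 98.5%. It treats regions of 1 pair of libraries as independent, so it does not measure a spread between libraries. The share lay between 97.2% and 97.5% under a minimum length, merging, base pairs covered and autosomes only. These are recounts of the same called lists, so their closeness does not bear on how firmly regions were called. The 3 values that moved follow from the distance allowed. Lower regions at a changed region of another mark numbered 4 by overlap and 7 within 5000 bp. Lower regions with a lower neighbour numbered 14 within 5000 bp, 2 within 1000 bp and 50 within 20000 bp. The share of lower regions with a gene start, with its alternatives, was not run, since no mm9 annotation was used. No paired analysis was possible because each group had 1 library. Read depth is unknown, so how firmly each region was called cannot be judged, and a difference in depth or yield between the libraries cannot be told apart from the knockdown.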
